A study of Mus musculus with 16 samples.

Results

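Cell division and chromosome segregation genes were described in the motor cortex of mice after stroke. The 7 genes were selected on their difference between recovered and non-recovered mice, among genes with known roles in the cell cycle, after that difference had been seen in the deposited tables. They are 7 of 661 genes listed in either table: Bub1b, Cenpl, Hmmr, Plk4, Brca1 and Cdca7 among 417 contralesional genes, and Bub1b and Ncaph among 263 ipsilesional ones. Because the choice used the recovery difference, every such difference below is a description. Whether a member passed a p-value is given only to place it in its table, and is not a test of recovery.

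The animals were 8 C57Bl6 mice, all of which had a stroke, and RNA of the primary motor cortex was sequenced from both hemispheres of each, giving 16 libraries. Recovery was judged on a horizontal rotating beam, a balance task. The recovered group holds animals 6, 23 and 28 and the non-recovered group animals 17, 19, 20, 21 and 29, each group sampled ipsilesionally, in the injured hemisphere, and contralesionally, in the opposite one. For animals 6 and 23, both recovered, the description codes are crossed between the hemispheres relative to the titles. Which of the libraries in either hemisphere is animal 6 and which is animal 23 is therefore uncertain, and the titles were used. Age, stroke model and time after stroke are not given in these sources, and no group without a stroke is among the samples. Library totals recovered from the values ranged from 17972791 to 25590335 reads in recovered and from 20520350 to 27895465 in non-recovered contralesional cortex. On the ipsilesional side they ranged from 22286800 to 24021427 and from 19116419 to 26310885.

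A dividing cell copies its DNA, repairs breaks in the copies, builds a spindle from its centrosomes, condenses its chromosomes and waits until each kinetochore is attached before it separates them. Most of the genes for these steps are transcribed in bursts tied to the cell cycle, under E2F factors in the DNA copying phase and, towards mitosis, through the CHR promoter element and CCAAT boxes bound by NF-Y. Neurons of the adult cortex do not divide, and the cells that can, such as oligodendrocyte precursors, microglia after injury and vessel cells, are a minority, so transcripts of this kind are usually scarce in bulk cortex. In bulk tissue, fewer cells of a type and less RNA per cell cannot be told apart.

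The promoters of 4 of the genes are shown because they carry the letters of these elements at different places. They are RefSeq windows on GRCm38.p6, the assembly behind mm10, 250 bases before to 50 after the annotated start, read 5′ to 3′ on the strand of the gene. Capitals mark the CHR element TTTGAA, the CCAAT box CCAAT, and the E2F sites TTTCCCGC, TTTCGCGC, TTTGCCGC and TTTGGCGC, each searched on both strands, with no overlap between the matches. The Bub1b window is chr2:118597961-118598260 on the plus strand, that of Cenpl chr1:161070517-161070816 on the plus strand, that of Hmmr chr11:40733388-40733687 on the minus strand and that of Cdca7 chr2:72475969-72476268 on the plus strand.
Bub1b: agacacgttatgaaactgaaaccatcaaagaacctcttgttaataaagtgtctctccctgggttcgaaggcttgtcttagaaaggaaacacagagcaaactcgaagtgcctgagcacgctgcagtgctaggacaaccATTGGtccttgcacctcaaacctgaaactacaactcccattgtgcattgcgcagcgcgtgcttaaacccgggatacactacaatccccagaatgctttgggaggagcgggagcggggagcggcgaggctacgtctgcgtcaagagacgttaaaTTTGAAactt
Cenpl: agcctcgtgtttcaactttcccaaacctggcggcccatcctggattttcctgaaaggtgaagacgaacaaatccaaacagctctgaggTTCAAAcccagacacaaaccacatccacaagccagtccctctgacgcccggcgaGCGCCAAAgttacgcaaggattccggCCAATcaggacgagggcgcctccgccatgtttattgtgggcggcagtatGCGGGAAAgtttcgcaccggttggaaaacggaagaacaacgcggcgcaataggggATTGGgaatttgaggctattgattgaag
Hmmr: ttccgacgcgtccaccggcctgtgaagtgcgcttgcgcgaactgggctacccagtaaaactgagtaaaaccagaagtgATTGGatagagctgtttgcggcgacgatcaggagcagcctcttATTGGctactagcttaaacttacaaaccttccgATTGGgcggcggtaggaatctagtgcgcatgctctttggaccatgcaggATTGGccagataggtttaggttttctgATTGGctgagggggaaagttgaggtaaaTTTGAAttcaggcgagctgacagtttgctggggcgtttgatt
Cdca7: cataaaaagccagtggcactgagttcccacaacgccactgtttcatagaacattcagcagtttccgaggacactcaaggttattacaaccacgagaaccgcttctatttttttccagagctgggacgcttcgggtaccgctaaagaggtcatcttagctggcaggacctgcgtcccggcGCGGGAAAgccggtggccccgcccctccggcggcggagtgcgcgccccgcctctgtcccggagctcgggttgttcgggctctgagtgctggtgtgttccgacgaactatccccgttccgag

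The Hmmr window held 5 CCAAT boxes, all on the opposite strand, between 172 and 20 bases before the start, and a CHR element 9 bases into the transcript. Bub1b had 1 CCAAT box 113 bases before the start and a CHR element 41 bases into the transcript. Cenpl was the only one of the 7 with all 3 kinds, namely E2F sites 108 and 33 bases before the start, CCAAT boxes 82 bases before and 23 bases after it, and a CHR element 162 bases before it. Cdca7 had 1 E2F site, 71 bases before the start, and Brca1 had 1 CCAAT box, 86 bases before it. None of the 3 kinds of letters was in the Plk4 or Ncaph window. In all, 3 of 7 windows held a CHR element, 4 of 7 a CCAAT box and 2 of 7 an E2F site. Of all 32851 RefSeq windows of the same length, 17.89%, 37.41% and 2.265% did. A match describes the letters only, and says nothing of what binds there.

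**Figure D1:**
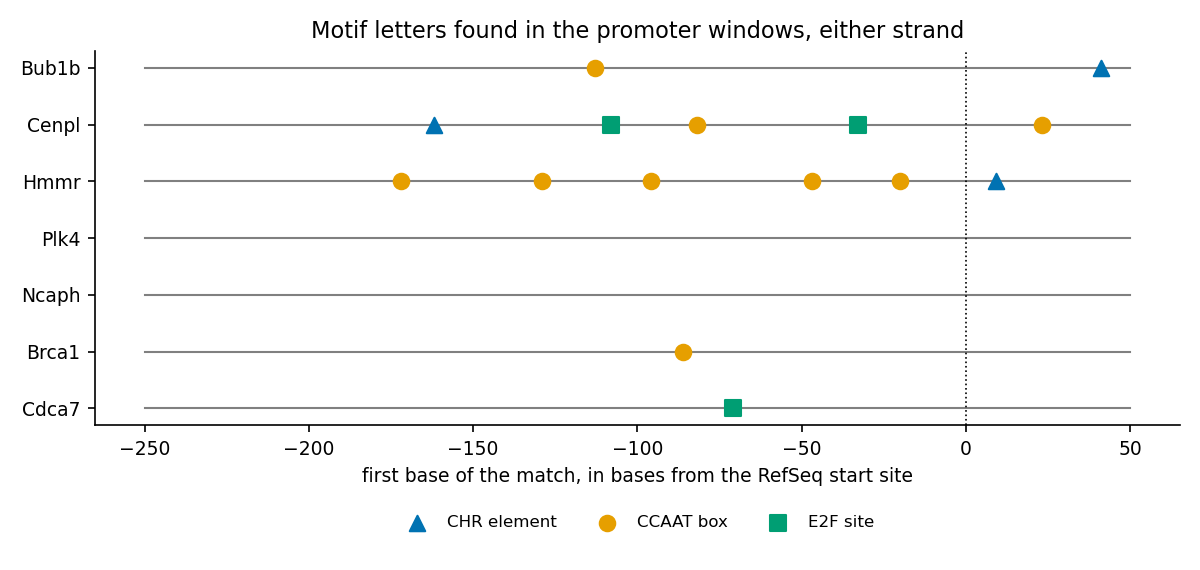
Positions of motif letters in the promoter windows of the 7 genes. The x axis gives the first base of each match in bases from the RefSeq start site, each row is a gene, and symbols mark the CHR element, CCAAT box and E2F sites on either strand; Hmmr carries 5 CCAAT boxes, and Plk4 and Ncaph carry no match.

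In contralesional cortex all 6 genes were lower in recovered mice, by 0.32 to 0.80 on the log2 scale, with a median of -0.54. Their mRNAs were rare, at 15 to 112 reads per library. Among all 417 genes listed there the median was -0.19 and 64.7% were lower, so the members' shared direction is also that of most of the table. Values are log2 CPM, counts per 1000000 reads with a prior count of 2 added, and differences are recovered minus non-recovered with the standard error (SE) from limma. The p-values of limma were adjusted over the whole table by Benjamini-Hochberg, and 2 of 6 genes, Cenpl and Hmmr, passed an adjusted p of 0.05, where 7.91% of the table did. At the unadjusted p all 6 passed, beside 73.4% of the table. Groups did not overlap for 3 of 6, Cenpl, Hmmr and Cdca7, beside 43.2% of the table. Nothing is read from these counts, since the genes were chosen on this difference, and the rule by which the table lists its genes is not known here.

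Summed over the 6 genes, the level was 8.04 CPM in animal 6, 8.28 in animal 23 and 7.79 in animal 28 of the recovered group. It was 11.6, 12.6, 10.4, 14.5 and 10.3 CPM in the non-recovered animals 17, 19, 20, 21 and 29. Recovered libraries were at 8.04 ± 0.25 CPM (SD, n = 3), below every non-recovered library, at 11.9 ± 1.75 (SD, n = 5). The 6 genes were chosen on this difference, so the choice favoured a separation of their sum, which is a description only. The recovered sums rest on 140 to 212 reads, and their SD was not set against counting error.

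**Figure D2:**
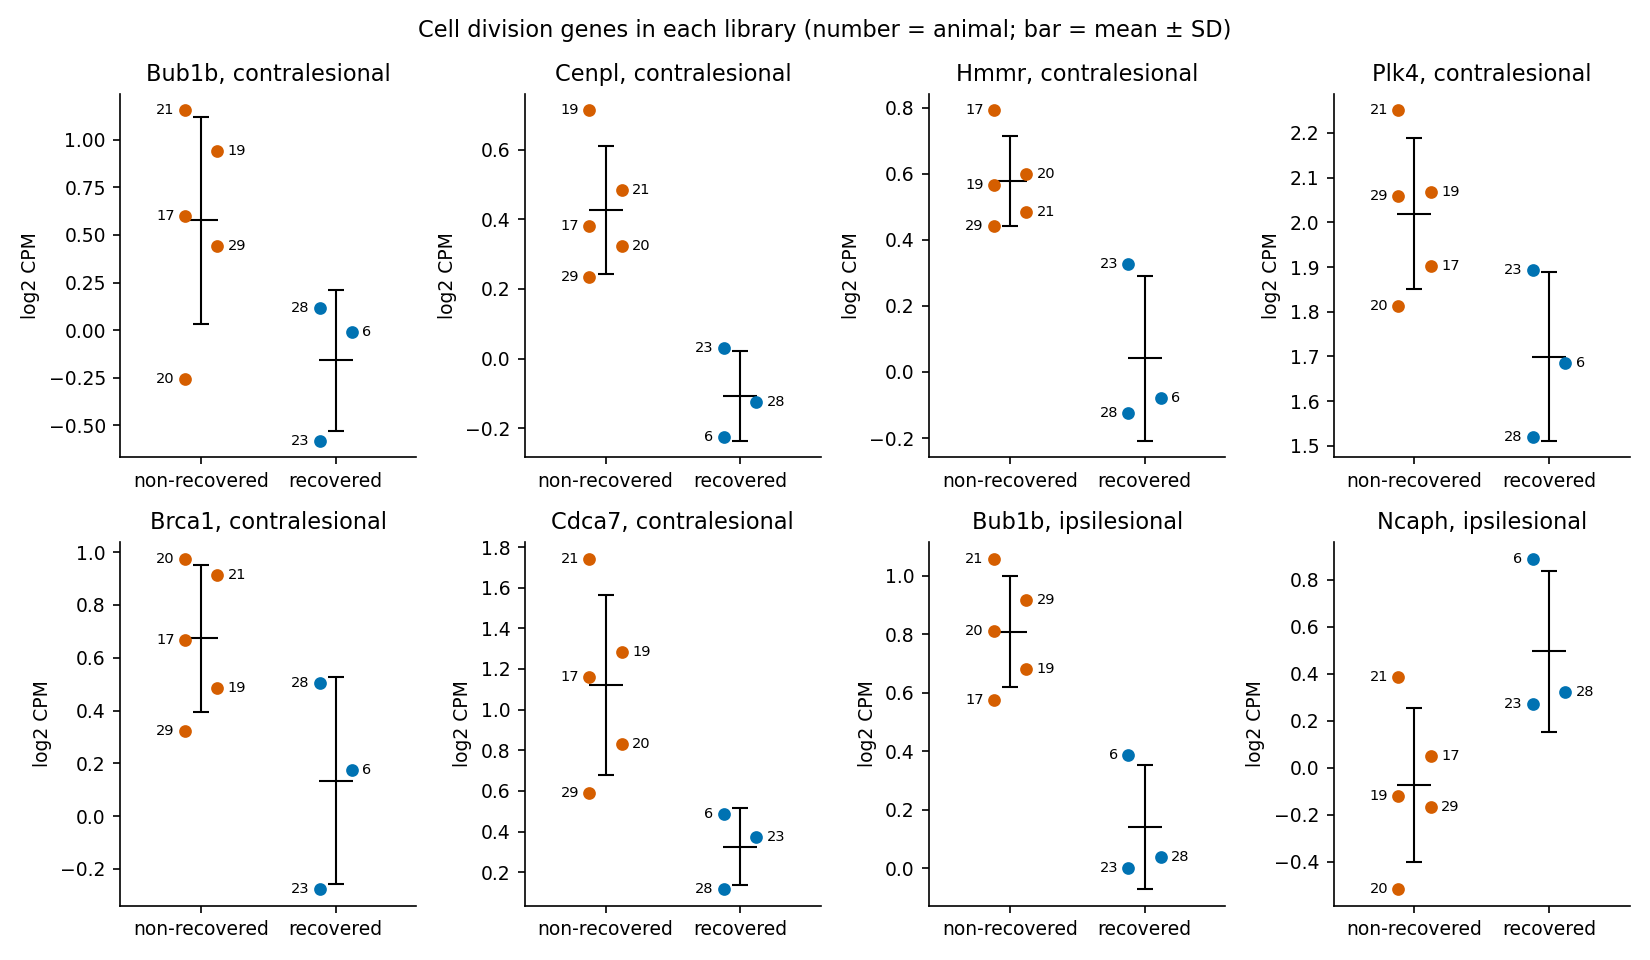
Log2 CPM of each gene in every library, by group, with animal numbers beside the points and bars for the mean ± SD (n = 3 recovered, n = 5 non-recovered). The 6 contralesional genes and ipsilesional Bub1b sit lower in recovered mice, without overlap for Cenpl, Hmmr, Cdca7 and ipsilesional Bub1b, and Ncaph sits higher with overlap.

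The first role is the checkpoint and the kinetochore. Bub1b encodes BUBR1, the part of the mitotic checkpoint complex that holds back the anaphase-promoting complex until chromosomes are attached (chromosome 2, 118598211 to 118641591, plus strand, GRCm38). In contralesional cortex it stood at -0.012, -0.58 and 0.12 log2 CPM in the recovered animals 6, 23 and 28, and at 0.60, 0.94, -0.26, 1.16 and 0.44 in the non-recovered animals 17, 19, 20, 21 and 29. Animal 20 lay among the recovered mice and the other 4 non-recovered ones above them all. The difference was -0.73 ± 0.30 (SE), and pooled reads gave 0.808 CPM in recovered and 1.45 CPM in non-recovered mice, 44.3% lower.

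Cenpl encodes CENP-L, a subunit of the inner centromere network on which kinetochores are built (chromosome 1, 161070713 to 161086724, plus strand). Its values were -0.23, 0.030 and -0.12 log2 CPM in animals 6, 23 and 28, against 0.38, 0.71, 0.32, 0.48 and 0.23 in animals 17, 19, 20, 21 and 29. Every recovered library was under every non-recovered one, with a gap of 0.20 between the groups. The difference was -0.53 ± 0.11 (SE), or 0.854 against 1.26 CPM in pooled reads, 32.4% lower.

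The spindle and the centrosome come next. Hmmr encodes RHAMM, a microtubule-binding protein of the spindle poles that is also known as a hyaluronan receptor (chromosome 11, 40701395 to 40733422, minus strand). It stood at -0.080, 0.33 and -0.12 log2 CPM in animals 6, 23 and 28 and at 0.79, 0.57, 0.60, 0.48 and 0.44 in animals 17, 19, 20, 21 and 29. The groups were apart, though by 0.11 only, since animal 23 was close to the lowest non-recovered mouse. The difference was -0.54 ± 0.12 (SE), or 31.3% lower in pooled reads.

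Plk4, the kinase that starts centriole duplication (chromosome 3, 40800019 to 40816883, plus strand), had the most reads and the smallest difference of the 6. Values were 1.69, 1.89 and 1.52 log2 CPM in animals 6, 23 and 28, and 1.90, 2.07, 1.81, 2.25 and 2.06 in animals 17, 19, 20, 21 and 29. Animal 23 of the recovered group was above animal 20 of the non-recovered group, so the groups overlapped. The difference was -0.32 ± 0.12 (SE), or 18.3% lower in pooled reads.

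Genome upkeep was represented by Brca1 and Cdca7. Brca1 acts in the repair of broken DNA by homologous recombination in copied chromosomes (chromosome 11, 101488764 to 101551955, minus strand). Its values were 0.17, -0.28 and 0.50 log2 CPM in animals 6, 23 and 28, and 0.67, 0.49, 0.98, 0.92 and 0.32 in animals 17, 19, 20, 21 and 29. Animal 28 was above animals 19 and 29, so the groups overlapped, and animal 23 was the lowest of all. The difference of -0.54 ± 0.20 (SE), 33.9% lower in pooled reads, was -0.33 without animal 23.

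Cdca7, a zinc finger protein that brings the chromatin remodeller HELLS to DNA for the upkeep of DNA methylation (chromosome 2, 72476159 to 72486893, plus strand), had the largest difference of the 6. It stood at 0.49, 0.37 and 0.12 log2 CPM in animals 6, 23 and 28, against 1.16, 1.29, 0.83, 1.74 and 0.59 in animals 17, 19, 20, 21 and 29. The recovered mice were all lower, the closest pair being animals 6 and 29 with a gap of 0.10, and the non-recovered mice spread widely. The difference was -0.80 ± 0.23 (SE), or 1.19 against 2.12 CPM in pooled reads, 43.9% lower, and it ranked 3 of 417 from the most negative in the table.

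**Figure D3:**
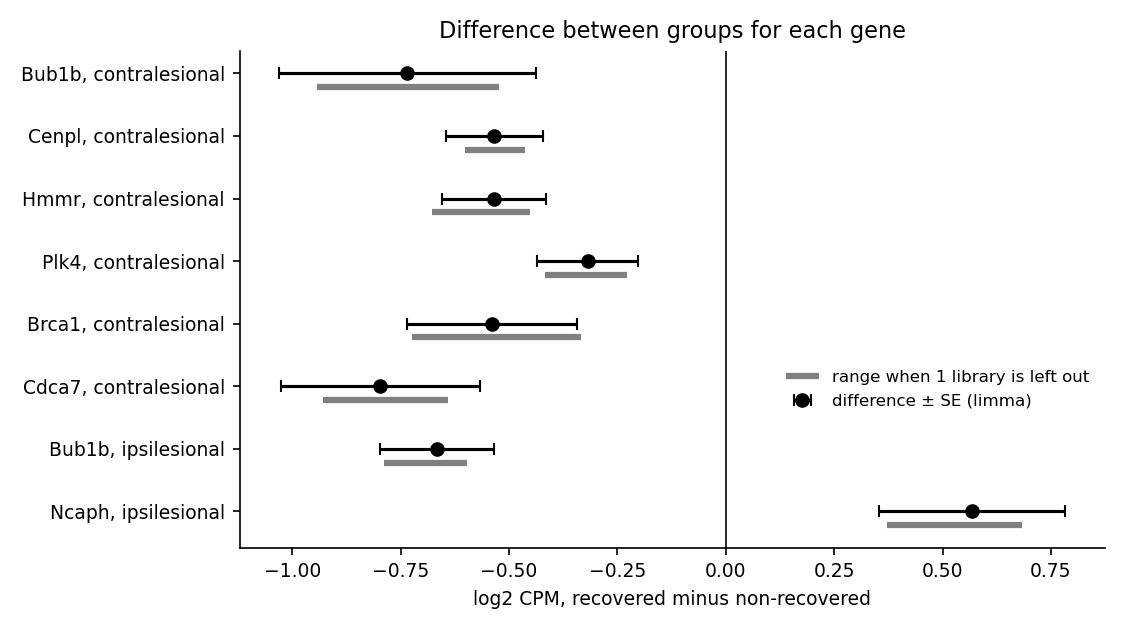
Difference between recovered and non-recovered mice in log2 CPM for each gene and hemisphere, as points with the SE from limma, and grey bars for the range when 1 library is left out. Ncaph is the only positive one, and no bar crosses 0.

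Limits of the contralesional values are as follows. Cenpl did not pass the adjusted p without animal 17, 19, 20, 21 or 28, nor Hmmr without any of these or animal 6, and neither passed with voom, with log2(CPM + 1) or after quantile normalization, although both kept their direction. Cdca7 passed it without animal 29 or with the length trend described below removed. In these settings 74 of 417 and 72 of 415 genes passed, beside 33 of 417 in the main fit. The differences were between -0.52 and -0.25 on the log2(CPM + 1) scale and between -0.60 and -0.14 after quantile normalization, which forces equal distributions on a table with mostly lower genes.

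Counting reads set much of the precision. For each gene the SD within groups, pooled over both, was set beside the SD that counting alone gives at those reads. It was 0.17 against 0.27 for Cenpl and 0.18 against 0.26 for Hmmr, so both members that passed the adjusted p had less spread between animals than counting error alone predicts. Ipsilesional Bub1b, at 0.20 against 0.24, was also under it. Plk4 (0.18 against 0.15), Brca1 (0.32 against 0.25) and Ncaph (0.33 against 0.28) were close to counting error, and contralesional Bub1b (0.49 against 0.26) and Cdca7 (0.38 against 0.22) exceeded it. Among the 109 contralesional genes with a mean of at most 100 reads, 45 were under counting error in the same way. As an example of that error, the 15 reads of Bub1b in animal 23 have an exact Poisson 95% interval of 8.40 to 24.7 reads and the 46 reads in animal 19 one of 33.7 to 61.4. PCR copies are not independent molecules, so these intervals cover counting error only.

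**Figure D4:**
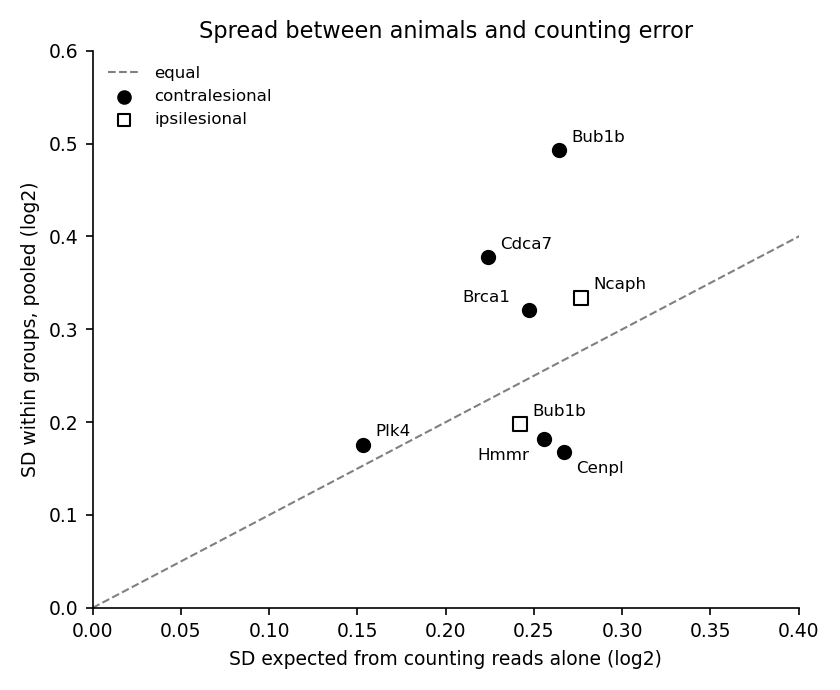
Pooled SD within groups (y axis, log2) against the SD expected from counting reads alone (x axis, log2), for each gene, with filled circles for contralesional and open squares for ipsilesional cortex. Cenpl, Hmmr and ipsilesional Bub1b lie under the dashed line of equality, and contralesional Bub1b and Cdca7 lie farthest above it.

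Per kilobase of exonic sequence, the scale on which genes can be compared, Cdca7 (0.563 ± 0.235 CPM per kb, SD over n = 8 libraries) and Plk4 (0.538 ± 0.087) were the most abundant in contralesional cortex. Their ranges over the 8 libraries overlapped, at 0.313 to 1.02 for Cdca7 and 0.406 to 0.682 for Plk4. The SD and range mix both groups and so include each gene's recovery difference. The order of these genes within each library or group was not compared. Bub1b (0.291 ± 0.126), Hmmr (0.229 ± 0.051), Cenpl (0.195 ± 0.046) and Brca1 (0.158 ± 0.045) followed, each overlapping its neighbour in this order. Plk4 did not overlap the next 3 genes below Bub1b, since its lowest library had 0.406 CPM per kb and the highest of Hmmr 0.304.

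Over the genes listed contralesionally, the trend of values on exonic length differed between the groups. It was fitted on 415 of these genes and on no unlisted ones. Of the table, 73.4% passed the unadjusted p of limma for recovery, so the trend is not independent of that contrast. Per doubling of length, log2 CPM deviated from each gene's mean by -0.016, -0.111 and -0.045 in animals 6, 23 and 28 of the recovered group. In all 5 non-recovered libraries the deviation was positive, at 0.024 to 0.044. Because each gene's mean over the 8 libraries was removed, these slopes balance to 0. Negative slopes in one group thus push the others up, and the opposite signs are not separate results. The members' exonic lengths ran from 3202 nt for Cdca7 to 8533 nt for Brca1, beside a table median of 5236 nt. With the trend of each library removed, all 6 stayed lower, at -0.75 for Bub1b, -0.52 for Cenpl and for Hmmr, -0.28 for Plk4, -0.47 for Brca1 and -0.85 for Cdca7. On the ipsilesional side the slopes were 0.005, 0.039 and 0.014 in the recovered animals 6, 23 and 28. They ran from -0.045 to 0.017 in the non-recovered libraries. No annotated gene of GENCODE M21 overlaps any of the 7.

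In ipsilesional cortex Bub1b was again lower and the other listed gene, Ncaph, higher in recovered mice. Of the genes listed on this side, 131 were higher and 132 lower. Neither gene passed the adjusted p of limma, beside 1.14% of the 263 listed genes, both passed the unadjusted one, beside 74.5%, and the groups did not overlap for 1 of 2, beside 42.2%. These counts too rest on the contrast by which the genes were chosen.

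Bub1b stood at 0.39, 0.00085 and 0.038 log2 CPM in the recovered animals 6, 23 and 28, and at 0.58, 0.68, 0.81, 1.06 and 0.92 in animals 17, 19, 20, 21 and 29. No recovered library reached the lowest non-recovered one, with a gap of 0.19. The difference was -0.67 ± 0.13 (SE), from 21 to 49 reads per library, or 39.0% lower in pooled reads.

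Ncaph encodes the kleisin subunit that closes the condensin I ring around mitotic chromosomes (chromosome 2, 127103809 to 127133954, minus strand). Its values were 0.89, 0.27 and 0.32 log2 CPM in animals 6, 23 and 28 and 0.050, -0.12, -0.52, 0.39 and -0.17 in animals 17, 19, 20, 21 and 29. Animal 21 lay above the recovered animals 23 and 28, so the groups overlapped, and animal 6 was the highest. The difference of 0.57 ± 0.21 (SE), at 14 to 42 reads per library and 52.0% higher in pooled reads, was 0.37 without animal 6 and 0.32 on the log2(CPM + 1) scale. Ipsilesional Bub1b passed the adjusted p without animal 6 or 19, after quantile normalization, or with the length trend removed. In these settings 6, 13, 39 and 31 of the 263 listed genes passed, beside 3 in the main fit.

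The listed markers of microglia and macrophages were highest in animals 6 and 21. Of 14 such genes, 2 were listed ipsilesionally, and their summed level was 8.57 to 112.7 CPM in recovered and 7.32 to 16.9 CPM in non-recovered mice. Gpnmb, a gene of activated macrophages, reached 6.50 log2 CPM in animal 6 and 3.19 in animal 21, against 1.12 to 1.59 in the other 6. Itgam, the CD11b integrin chain, reached 4.47 in animal 6 and 2.98 in animal 21, against 2.41 to 2.92. These are the libraries in which Ncaph and Bub1b were highest within their own groups. The match did not extend to all libraries. Itgam in animal 21 was close to the 2.92 of animal 29. It was higher in animal 23 (2.86) than in animal 28 (2.52), whereas Bub1b and Ncaph were slightly lower in animal 23. The part of microglia and macrophages in the Ncaph and Bub1b values was not tested. Within groups, Bub1b and Ncaph deviated together across the 8 libraries (Pearson r = 0.57, given as a description).

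Bub1b was the only gene of the 7 listed in both hemispheres. The tables were normalized separately, so levels were not set against each other, and only the recovery differences were. The contralesional difference minus the ipsilesional one was -0.068 ± 0.32 (SE). With the animal number as replicate block its estimate was also -0.068 (SE 0.29), and its 95% interval ran from -0.72 to 0.58. The interval holds 0, and its lower end is about as large as the recovery difference of Bub1b in either hemisphere, while its upper end is smaller than both. With animals 6 and 23 paired by description code, it ran from -0.83 to 0.69. Its lower end is then larger than both differences, and its upper end lies between them in size. Animal 21 was the highest non-recovered mouse in both hemispheres, whereas animal 20 was the lowest in the contralesional and in the middle in the ipsilesional table.

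Other genes of cell division were looked up in 10 lists of 276 symbols in all, covering the checkpoint, kinetochore, cyclins, spindle, centrioles, condensin, replication, methylation upkeep, homologous recombination and cell cycle inhibitors. The contralesional table listed 11 of them, 10 lower and 1 higher, where 64.7% of the whole table was lower. Of the 11, 6 were members, chosen on this difference. The 5 that were not members were 4 lower and 1 higher, and 3 of the lower ones came from the list of cell cycle inhibitors. The ipsilesional table listed 2, both members. None of 45 DNA replication genes, such as Pcna and the Mcm helicase genes, was listed in either table, and neither were Mki67 and Top2a, so their values were not analysed here. Of the 5 other genes, 0 passed the adjusted p of limma, and at the unadjusted p 1 higher and 3 lower genes passed, beside 7.91% and 73.4% of the table.

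Lin9, a subunit of the MuvB complex that binds CHR elements, stood at 1.49 to 2.12 log2 CPM in recovered and 1.97 to 2.35 in non-recovered mice (-0.37 ± 0.15, SE). Zbtb24, a zinc finger factor known to switch on Cdca7 and, like Cdca7 and HELLS, mutated in ICF syndrome, went the opposite way to Cdca7. It stood at 3.32 to 3.59 in recovered and 3.17 to 3.27 in non-recovered mice, without overlap (0.22 ± 0.07, SE).

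Of 25 cell cycle inhibitors and quiescence genes, which restrain division, 3 were listed contralesionally, 0 of them past the adjusted p and 2 past the unadjusted one, beside 7.91% and 73.4% of the table. Trp53inp1, a p53 target (-0.28 ± 0.09, SE), and Tob1, of the BTG family (-0.21 ± 0.08, SE), were past the unadjusted p and lower, and Btg2 was at -0.53 ± 0.27 (SE) without passing it. All of these genes come from the same libraries and the same partial table.

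Cell types that could divide were looked up by their markers. Contralesionally, 0 of 14 microglial, 0 of 11 leukocyte, 0 of 10 oligodendrocyte precursor, 0 of 7 endothelial and 0 of 6 mural genes were listed, so their levels were not analysed here. Of 15 progenitor and neuroblast genes 3 were listed. Their summed level was 38.4 to 48.3 CPM in recovered and 43.0 to 54.4 CPM in non-recovered mice. Dcx (-0.35 ± 0.15, SE) and Sox11 (-0.33 ± 0.11, SE), both genes of immature neurons, were lower, and Hes5, a Notch target of progenitors and astrocytes (0.31 ± 0.11, SE), was higher. Of 11 meningeal fibroblast genes, 3 were listed contralesionally, with a summed level of 66.0 to 90.7 CPM in recovered and 88.1 to 104.4 CPM in non-recovered mice. Of these Mgp passed the adjusted p (-0.40 ± 0.09, SE), beside 7.91% of the table. Islr (-0.33 ± 0.16, SE) and Fn1 (-0.22 ± 0.11, SE) did not. Ipsilesionally 3 meningeal genes were also listed, with a summed level of 351 to 641 CPM in recovered and 416 to 870 CPM in non-recovered mice. Ptgds (-0.58 ± 0.29, SE), Slc6a20a (-0.53 ± 0.26, SE) and Slc22a6 (-0.57 ± 0.34, SE) were lower, as were 132 of the 263 genes listed there. None of the 3 passed the unadjusted p, beside 74.5% of those genes. In the ipsilesional table Bmp4, the only listed gene of 10 for oligodendrocyte precursors, stood at 1.50 to 1.70 log2 CPM in recovered and 1.59 to 2.30 in non-recovered mice. The part of any of these cells in the members' values was not tested. Of 12 cortical neuron markers, which would check the labelled tissue, the contralesional table listed 0 and the ipsilesional one 2, Gad1 and Slc32a1 of inhibitory neurons.

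The size of the spread within groups enters the p-values, but whether genes deviated together was not used in choosing them. Deviations from the group mean were compared over the 8 contralesional libraries. Of the 15 pairs among the 6 genes, 11 correlated positively and 4 negatively, with a median Pearson r of 0.18 and a range from -0.52 for Plk4 with Brca1 to 0.61 for Bub1b with Cdca7. The genes thus moved together within groups in some combinations and apart in others. Cdca7 correlated positively with each of the other 5, most with Bub1b, Plk4 (0.58) and Cenpl (0.54), whereas Hmmr went against Bub1b (-0.44) and Brca1 (-0.43). In the mean of the standardised deviations, animal 21 was the highest, at 0.85, and animal 29 the lowest, at -0.80, both of them non-recovered.

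The genes most like this mean among the other 411 were Adora2a (r = 0.94), Syndig1l (0.93) and Zfp994 (0.90), beside a median r of 0.02 over all 411. Adora2a encodes an adenosine receptor and Syndig1l a membrane protein, both known from striatal projection neurons. Adora2a stood at 2.22, 2.05, 1.30, 2.495 and 0.93 log2 CPM in animals 17, 19, 20, 21 and 29, and at 0.99, 1.18 and 1.02 in animals 6, 23 and 28. As deviations from the group mean, in SD, Adora2a was highest in animal 21 (1.39) and lowest in animal 29 (-1.74), the animals that were also highest and lowest in the mean of the 6 genes on that scale. For Bub1b alone the most alike were Cwf19l1 (r = 0.87), Pde10a, a striatal phosphodiesterase (0.87), and Fstl5 (0.85). These are the highest of many correlations over 8 libraries that share animals and depth, and are descriptions.

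**Figure D5:**
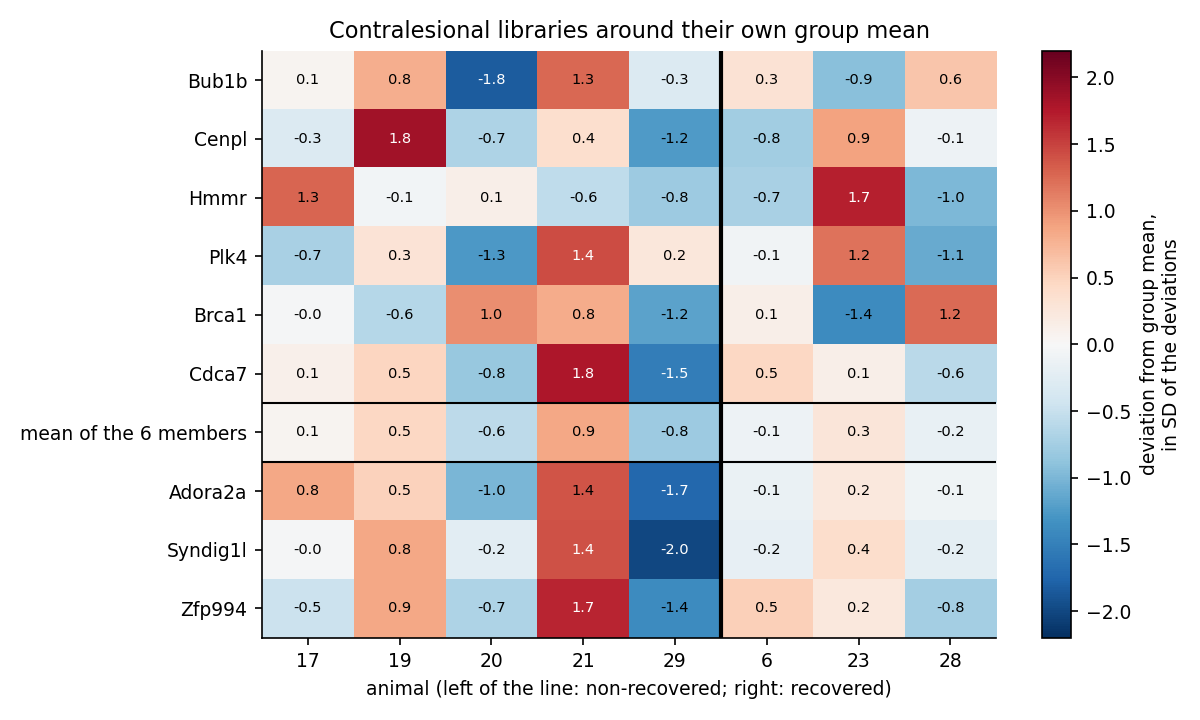
Deviation of each contralesional library from its own group mean, in SD of each gene's deviations (blue lower, red higher), for the 6 genes, their mean, and the 3 genes most like that mean. Columns are animals, non-recovered left of the line; animal 21 is the highest and animal 29 the lowest in the mean and in the 3 genes below it.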

How the data were processed

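Per the labels' protocols, messenger RNA was measured in 16 libraries from a stranded kit. Tools named without roles, per the submitters' processing notes, are bcl2fastq, edgeR, STAR 2.5.1b and Trimmomatic 0.38, and the build is mm10. How reads were counted, on which strand and annotation, and how genes were selected for listing is not given in the sources used here. The authors deposited 2 tables of log2 CPM, normalized separately, each listing selected genes. All values solved to whole reads within 0.01 after removing a prior count of 2 scaled to library size (3336 and 2104 values); the totals may include a normalization factor.

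Groups came from titles. limma 3.58.1 (R 4.3.3) compared recovered with non-recovered libraries on the deposited log2 values, unfiltered, with adjustment over each table. Since 73.4% and 74.5% of the listed genes pass an unadjusted p of 0.05, p-values adjusted over a table may be smaller than over all expressed genes. Alternatives were log2(CPM + 1), log2(CPM + 0.1), a minimum mean CPM of 1, voom on the reads, quantile normalization, removal of each library's trend on GENCODE M21 exonic length (415 of 417 and 263 of 263 genes matched) and leaving out each library. limma was also run on simulated reads with the same dispersion for every gene. The simulation did not copy the selection of listed genes or their differing spread, so it does not vouch for the calls here.

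The members and lists were chosen with earlier results of these data known. Named genes are the members, listed genes of the lists, and the 3 most correlated within groups, which for the ipsilesional table are not reported here. Animal numbers pair the hemispheres, because libraries come from the same animals. Same-numbered deviations correlated by 0.53 on average over 19 genes (lowest 0.12), and those of other numbers of a group by -0.16. Removing the group means pushes the other-number value below the same-number one once the latter is positive. The contrast between them is thus no separate support for the pairing. For animals 6 and 23 description codes cross the numbers; by code the correlations were 0.48 and -0.10, by number 0.33 and 0.52. Both are recovered, so groups do not change. The limma p-values set a group difference against the spread within groups, moderated over the table, and cover these animals only.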

Additional observations from a re-analysis of the deposited data

How the results depend on the processing

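All 6 contralesional genes stayed lower under each of 6 alternatives and without each of 8 libraries, a count added after seeing the data, and no member changed direction among 112 recomputed differences. The minimum mean CPM of 1 drops only other genes, so it could not move a member's difference, and the members were chosen on that difference. Of the 112, 106 moved by less than 1 SD within groups. The others were Cenpl (-0.29 with log2(CPM + 1), -0.21 after quantile normalization), Hmmr (-0.31 with each), Plk4 (-0.14 after quantile normalization) and ipsilesional Bub1b (-0.40 with log2(CPM + 1)). Without 1 library the contralesional differences ranged from -0.94 to -0.52 for Bub1b, -0.60 to -0.46 for Cenpl, -0.68 to -0.45 for Hmmr, -0.42 to -0.23 for Plk4, -0.72 to -0.33 for Brca1 and -0.93 to -0.64 for Cdca7. On the ipsilesional side they ranged from -0.79 to -0.60 for Bub1b and from 0.37 to 0.68 for Ncaph. The table-wide count of adjusted limma calls was less stable. In contralesional cortex it was 33 (8 higher, 25 lower), and 3 with log2(CPM + 1), 0 with voom (356 unadjusted), 77 after quantile normalization (70 higher, 7 lower), 72 with the length trend removed and 0 to 74 without 1 library (leaving out animal 17 gave 0, animal 20 gave 1, animal 19 gave 3, animal 28 gave 6, animal 21 gave 10, animal 23 gave 16, animal 6 gave 58 and animal 29 gave 74). In ipsilesional cortex it was 3 (0 higher, 3 lower), and 1, 0 (222 unadjusted), 39 (15 higher, 24 lower), 31 (12 higher, 19 lower) under the same settings, and 0 to 18 without 1 library (leaving out animal 17, 21 or 23 gave 0, animal 20 gave 1, animal 6 gave 6, animal 29 gave 7, animal 19 gave 13 and animal 28 gave 18). The cause was not tested. Quantile normalization moved the ipsilesional median of all genes from -0.129 to -0.013. The hemisphere difference of Bub1b was -0.068 with the replicate block by animal number (SE 0.29) and by description code (SE 0.34), -0.020 with log2(CPM + 1), and -0.28 to 0.072 without 1 animal. Its interval included 0 with either block. Members had 14 to 112 reads per library, at which counting error alone spans 0.15 to 0.28 SD in log2.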
